A study of Rattus norvegicus with 4 samples.

Results

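The hemoglobin genes of the newborn rat hippocampus were 6 of the 17445 rows listed over the 4 libraries, taken by their gene symbols. They were the alpha-type genes Hba1 and Hba2 and the beta-type genes Hbb, Hbb-b1, LOC689064 and LOC100134871. All 6 were listed in all 4 libraries and passed the filter on low values, a mean of at least 1 FPKM, in all 4 comparisons of 2 libraries. FPKM divides the fragments of a gene by its length in kilobases and by the size of the library. It is a level per length, so levels of different genes can be set side by side. The 6 genes were chosen by their FPKM in these libraries, with the changes between control and BPA in view, above all the opposite changes of LOC689064 and LOC100134871. Their changes with BPA are therefore given as a description of the libraries, without a test.

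RNA was taken from hippocampi of Wistar pups on postnatal day 1. The dams had received bisphenol A (BPA), a plastic monomer with estrogen-like activity, daily at 5000 µg/kg of body weight, or the vehicle alone, from gestation day 1 to birth. There was 1 library for each of control males, BPA males, control females and BPA females, and each library was a pool of 3 hippocampi. No group had a replicate library, so the difference between BPA and control within a sex could not be compared with the spread between animals.

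Hemoglobin carries oxygen in red blood cells as a tetramer of a pair of alpha-type and a pair of beta-type chains, each of which holds a heme group. The alpha-type and beta-type genes lie in separate clusters, and the members of a cluster are close copies of each other that are used at different stages of development. The RNA stays in young red cells after their nucleus is lost, so blood held in the vessels brings hemoglobin RNA into a tissue sample, and low hemoglobin expression has also been described in neurons and glia. In a bulk sample, fewer cells of a type and less RNA per cell cannot be told apart.

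Within each type the genes are copies of one another, and their values may depend on how fragments were shared among the copies. Transcript sequences were not compared, so this dependence was not tested. In the rat assembly GRCr8 as RefSeq annotates it, LOC689064, Hbb-b1, LOC100134871 and Hbb follow each other in this order on chromosome 1, and Hba2 and Hba1 on chromosome 10. RefSeq now names Hba1 Hba-a1, Hba2 Hba-a2, LOC689064 Hbb-bs and LOC100134871 Hbbl1. The 120 bases before the start that the RefSeq promoter table gives each gene are printed here to show how alike these windows are. They do not measure how alike the transcripts are. For Hbb-b1 the annotated gene runs to base 167643577, so its window overlaps the gene, and the start in the promoter table differs from that annotation. All 6 genes are on the minus strand, and the windows are chr10:15842581-15842700 (Hba1), chr10:15829139-15829258 (Hba2), chr1:167663722-167663841 (Hbb), chr1:167643521-167643640 (Hbb-b1), chr1:167631631-167631750 (LOC689064) and chr1:167650236-167650355 (LOC100134871) in GRCr8. They are written 5′ to 3′ along the gene. Capitals mark the motif CCAAT in either orientation, as well as the motif CACCC wherever it is found, and lastly the motif ATAAA nearer the start.
Hba1: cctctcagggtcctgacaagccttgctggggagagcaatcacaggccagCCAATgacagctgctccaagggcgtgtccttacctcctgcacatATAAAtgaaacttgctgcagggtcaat
Hba2: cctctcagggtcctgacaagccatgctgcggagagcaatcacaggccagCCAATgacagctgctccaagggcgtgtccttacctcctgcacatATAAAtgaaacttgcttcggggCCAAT
Hbb: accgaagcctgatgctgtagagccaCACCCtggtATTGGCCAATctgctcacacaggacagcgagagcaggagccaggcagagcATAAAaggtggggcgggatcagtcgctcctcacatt
Hbb-b1: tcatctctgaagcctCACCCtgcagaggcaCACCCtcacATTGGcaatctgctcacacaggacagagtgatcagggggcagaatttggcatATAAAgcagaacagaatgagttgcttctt
LOC689064: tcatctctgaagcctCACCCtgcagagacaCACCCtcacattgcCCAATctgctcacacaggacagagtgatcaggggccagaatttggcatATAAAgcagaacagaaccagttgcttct
LOC100134871: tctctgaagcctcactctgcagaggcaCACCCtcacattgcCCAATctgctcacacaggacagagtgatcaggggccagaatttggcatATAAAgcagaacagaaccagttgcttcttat

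The windows of Hba1 and Hba2 matched at 95.8% of 120 aligned bases. Among the beta-type genes, the windows of LOC689064 and LOC100134871 were the closest, with 115 of 117 aligned bases identical (98.3%). Hbb-b1 matched LOC689064 at 95.8% and LOC100134871 at 95.7%, whereas Hbb matched the other 3 beta-type windows at 71.8 to 72.8%. The low beta-type genes described later are thus the 3 whose windows are nearly the same, and the abundant Hbb stands apart from them.

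Each motif was searched on both strands. CCAAT is bound by factors common to many promoters. It was found in all 6 windows and in 19.9% of 33465 RefSeq promoters cut to the same 120 bases. A form of the TATA box, ATAAA, was found in all 6 windows and in 21.5% of promoters, 23 to 36 bases before the start in the hemoglobin genes. CACCC, the letters bound by KLF factors, was found in the 4 beta-type windows and in 29.5% of promoters. A form of the site bound by GATA factors, AGATAA, was found in 0 of the 6 windows and in 4.57% of promoters. Its last letters can overlap the TATA-like motif. These matches are a description of the letters in these windows.

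Neuronal content was checked by 7 markers of hippocampal neurons, which were all at 7.61 FPKM or more in every library. No other brain region was measured, so these levels do not tell hippocampus from neighbouring cortex. The markers summed to 441, 427, 399 and 427 FPKM in control males, BPA males, control females and BPA females. Markers of neighbouring tissue differed between the libraries. Choroid plexus markers (6 of 6 listed) summed to 265, 704, 9.23 and 45.5 FPKM in the same order. Ttr, the transthyretin of that tissue, was at 256, 690, 3.96 and 42.4 FPKM, most of the sum in every library but that of the control females. Meningeal markers (6 of 6 listed) summed to 62.2, 45.0, 129 and 53.5 FPKM, with the control females highest. The libraries held an estimated 8620000 to 8880000 fragments assigned to genes, so depth was nearly equal.

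By level, hemoglobin was among the more abundant transcripts of the tissue. The 6 genes summed to 1454 FPKM in control males, 1246 FPKM in BPA males, 1184 FPKM in control females and 1469 FPKM in BPA females. The BPA females and the control males were the high libraries and the BPA males and the control females the low ones, so the control and BPA libraries overlapped. The sum was 0.0825%, 0.0705%, 0.0680% and 0.0839% of the gene-assigned signal of the control males, BPA males, control females and BPA females libraries, measured as FPKM times length. Between the libraries of a sex, the summed level was lower with BPA in males (log2 change -0.22, with a 95% counting interval of -0.27 to -0.17) and higher with BPA in females (0.31, with an interval of 0.26 to 0.36). Changes are differences of log2(FPKM + 1), which understate the change of low genes, and intervals are for the log2 ratio of FPKM with nothing added. The intervals rest on the number of fragments estimated behind each value, 5406 to 6699 for the sum. They cover counting error only, not the differences between animals or any error in sharing fragments among gene copies.

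The difference between the sexes under the same treatment was of like size to the difference with BPA. The summed level of the control females was lower than that of the control males by a log2 change of -0.30, and that of the BPA females was higher than that of the BPA males by 0.24. In this respect the summed hemoglobin level had no common direction with BPA. The alpha-type sum was 978, 825, 759 and 951 FPKM in control males, BPA males, control females and BPA females, and the beta-type sum was 476, 421, 425 and 518 FPKM in the same order. Both sums were lower with BPA in males (log2 change -0.24 for alpha-type and -0.18 for beta-type genes) and higher with BPA in females (0.33 and 0.29). The alpha-type level was 1.79 to 2.06 times the beta-type level, highest in control males and lowest in control females.

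Among the alpha-type genes, Hba1, which encodes an alpha chain, had the highest level of the 6 in every library. It was at 610 FPKM in control males, 487 FPKM in BPA males, 463 FPKM in control females and 564 FPKM in BPA females, which placed it between the 65th and the 101st of the rows of a library. Its log2 change with BPA was -0.33 in males and 0.28 in females. Both BPA values lay between the control values of Hba1, so the treatments overlapped.

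Hba2, the neighbouring alpha-chain gene, was at 368, 339, 296 and 387 FPKM in control males, BPA males, control females and BPA females. Its log2 change with BPA was -0.12 in males and 0.39 in females, and the control and BPA libraries overlapped. The ratio of Hba1 to Hba2 was 1.66 in control males, 1.44 in BPA males, 1.57 in control females and 1.46 in BPA females. It was lower in both BPA libraries than in both controls. No counting interval was taken for this ratio, and whether its order exceeds counting error was not tested. The promoter windows of Hba1 and Hba2 matched at 95.8%, but their transcripts were not compared. How fragments were split between these genes is not given in the sources used here.

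Hbb, which encodes the beta-1 chain by its best protein match, was the abundant beta-type gene. It was at 359, 322, 312 and 404 FPKM in control males, BPA males, control females and BPA females. Its log2 change with BPA was -0.16 in males and 0.37 in females, and the treatments overlapped. Hba2 and Hbb were not separated by level: the counting intervals of these genes overlapped in every library, and Hba2 was the higher in males and Hbb the higher in females. Hbb alone was 2.78 to 3.56 times the sum of the other 3 beta-type genes.

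**Figure D1:**
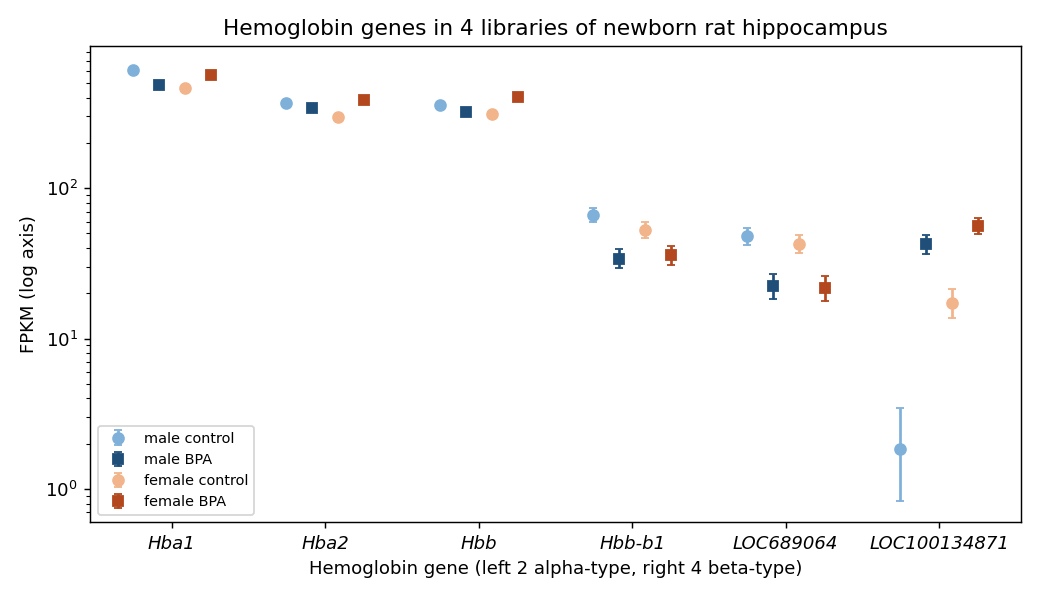
FPKM (log axis) of the 6 hemoglobin genes in the 4 libraries, with alpha-type genes on the left and beta-type genes on the right. Points are single libraries and bars are 95% counting intervals. Hba1, Hba2 and Hbb lie between 296 and 610 FPKM in every library, and LOC100134871 runs from 1.83 FPKM in control males to 55.9 FPKM in BPA females.

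The other beta-type genes were far lower and went different ways. Hbb-b1, matched to the adult major beta chain, was at 66.8 FPKM in control males, 34.1 FPKM in BPA males, 52.6 FPKM in control females and 35.9 FPKM in BPA females. These levels rest on an estimated 352, 178, 275 and 188 fragments. Both BPA libraries lay below both control libraries, with a log2 change of -0.95 in males and -0.54 in females.

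LOC689064, whose best protein match is the beta-2 chain, was at 47.8 FPKM in control males, 22.3 FPKM in BPA males, 42.7 FPKM in control females and 21.7 FPKM in BPA females. Both BPA libraries were lower than both controls, and the libraries of the same treatment were close, with a log2 difference between the sexes of -0.16 for control and -0.04 for BPA. The log2 change with BPA was -1.07 in males and -0.95 in females.

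LOC100134871 has the same best protein match, the beta-2 chain, and had the opposite order. It was at 1.83 FPKM in control males, 42.3 FPKM in BPA males, 17.2 FPKM in control females and 55.9 FPKM in BPA females, or an estimated 9, 206, 84 and 273 fragments. Both BPA libraries were above both controls. The level was 23.1-fold higher with BPA in males, with a counting interval of 12.0 to 51.3, and 3.26-fold higher in females, with an interval of 2.53 to 4.19 (log2 changes of 3.94 and 1.65). The controls of the sexes also differed in this gene, by 9.38-fold, with an interval of 4.72 to 21.3, which is more than the difference with BPA within females. The BPA pools of the sexes differed by 1.32-fold. The intervals of this gene leave out any error in sharing fragments with its copies, so they can be too narrow.

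Counted over the 6 genes, the treatments did not overlap for 3 genes, Hbb-b1 and LOC689064 with BPA below and LOC100134871 with BPA above. Over all 13542 rows listed in the 4 libraries with a mean of at least 1 FPKM, 33.6% did not overlap, 19.9% with BPA below and 13.8% with BPA above. Since the genes were chosen for this contrast, nothing is read from the count. Hba1, Hba2 and Hbb had changes of opposite sign in the sexes, as had 43.2% of all rows.

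A change was counted as past the fold when its absolute log2 change was at least 1. In males LOC100134871 was past it in the higher direction, as were 0.866% of 13508 rows, and LOC689064 in the lower direction, as were 0.837%; 1.7% were past it either way. In females LOC100134871 was past it, where 1.03% of 13550 rows were past it as higher, 1.29% as lower and 2.32% either way. Between the controls LOC100134871 was past it as higher in females, where 1.21% of 13604 rows were past it as higher, 1.24% as lower and 2.45% either way. Between the BPA libraries 0 of the 6 genes were past it, against 0.878% of 13443 rows as higher, 1.04% as lower and 1.92% either way. These comparisons share libraries and are not independent of each other. Most rows past the fold were new gene models of the submitters without a gene ID; among rows with a gene ID 0.286% were past it in males and 0.671% in females.

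**Figure D2:**
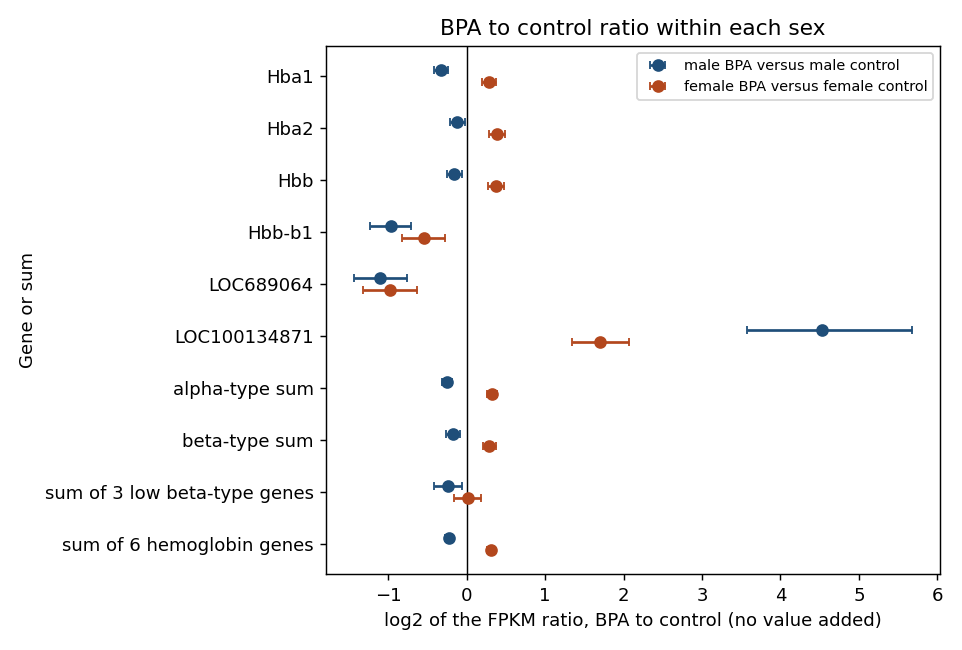
Log2 of the FPKM ratio of BPA to control (horizontal axis, nothing added to FPKM) in males and in females for each hemoglobin gene and for sums of them. Points are 1 library against 1 and bars are 95% counting intervals. LOC100134871 lies above 0 in both sexes, Hbb-b1 and LOC689064 lie below 0 in both, and Hba1, Hba2, Hbb and the sum of 6 genes lie on opposite sides in the sexes.

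The 3 low beta-type genes together were far steadier than each of them. They were chosen with their opposite changes in view, and a sum of rising and falling genes tends to be steadier than its parts. The steadier sum is therefore given as a description of the libraries. Hbb-b1, LOC689064 and LOC100134871 summed to 116 FPKM in control males, 98.7 FPKM in BPA males, 112 FPKM in control females and 114 FPKM in BPA females. The log2 change of this sum was -0.24 in males, with a counting interval of -0.41 to -0.06, and 0.01 in females, with an interval of -0.16 to 0.18. LOC100134871 made up 1.57% of this sum in control males and 15.3% in control females, against 42.9% in BPA males and 49.3% in BPA females. LOC689064 made up 41.1% and 38.0% in the controls of males and females and 22.6% and 19.1% in the BPA libraries. Hbb-b1 made up 57.3% and 46.8% in the controls and 34.5% and 31.6% with BPA.

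Hbb-b1 and LOC689064 together were at 115, 56.4, 95.3 and 57.6 FPKM in control males, BPA males, control females and BPA females, with both BPA libraries below both controls. LOC689064 and LOC100134871 have the same best protein match and the closest promoter windows. They summed to 49.7, 64.6, 59.9 and 77.6 FPKM in the same order, with both BPA libraries above. The log2 change of this pair was 0.37 in males (counting interval 0.14 to 0.63) and 0.37 in females (0.15 to 0.60). Hbb-b1 and LOC100134871 summed to 68.6, 76.4, 69.8 and 91.8 FPKM, again with both BPA libraries above. Their log2 change was 0.15 in males (counting interval -0.06 to 0.36) and 0.39 in females (0.20 to 0.60). The ratio of LOC100134871 to LOC689064 was 0.0383 in control males and 0.402 in control females, and 1.90 in BPA males and 2.58 in BPA females. The part of fragments shared between these copies in the opposite orders of LOC689064 and LOC100134871 was not tested. The FPKM are as deposited, and the reads were not used here. The summed choroid plexus markers were higher with BPA in both sexes, as LOC100134871 was, with 4 of 4 tested markers higher in males and 1 of 2 in females. In females Ttr alone carried the higher sum, since of the 6 markers Folr1, Kl, Kcnj13 and Aqp1 were lower with BPA and Otx2 was at 0.76 and 1.00 FPKM. In the controls the order was the other way, with the choroid plexus sum higher in males and LOC100134871 higher in females. The meningeal markers were lower with BPA, as Hbb-b1 and LOC689064 were, in 5 of 6 markers in males and 6 of 6 in females, of which 5 were past the fold in females. The part of these tissues in the hemoglobin values was not tested.

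A new gene model of the submitters, BGI_novel_G003511, of 720 bases, was the sole new model matched to a hemoglobin, and its best match was again the beta-2 chain. It was at 5.07 FPKM in control males, 3.79 FPKM in BPA males, 0.47 FPKM in control females and 10.4 FPKM in BPA females, or an estimated 29, 22, 3 and 60 fragments. In females it was 22.1-fold higher with BPA, with a counting interval of 6.49 to 99.2, and in males the ratio was 0.748, with an interval of 0.419 to 1.38. With this model added, the low beta-type sum was 121, 103, 113 and 124 FPKM in control males, BPA males, control females and BPA females.

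**Figure D3:**
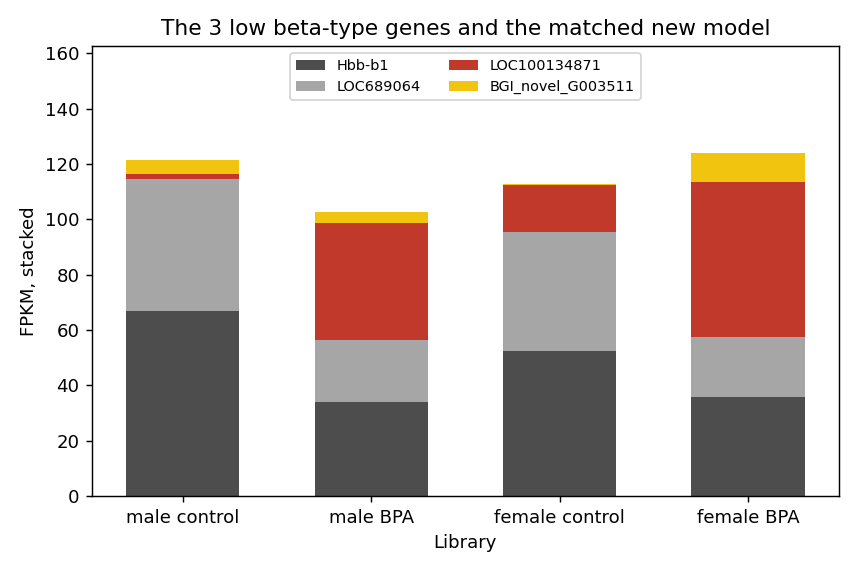
Stacked FPKM of Hbb-b1, LOC689064, LOC100134871 and the new gene model BGI_novel_G003511 (vertical axis) in each of the 4 libraries. The stacks reach 103 to 124 FPKM, while the LOC100134871 layer is 1.83 and 17.2 FPKM in the controls and 42.3 and 55.9 FPKM in the BPA libraries.

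Few of the other globin genes were listed. Of 16 symbols looked for, 5 were listed outside the 6 genes. The alpha-type gene listed as Hba-a1 (gene ID 287167, now Hba-a3 in RefSeq and distinct from Hba1) was at 3.77, 2.56, 3.44 and 2.83 FPKM in control males, BPA males, control females and BPA females. Its levels rest on 8 to 12 fragments, and its changes lay within counting error in both sexes. Hbz and Hbg1, listed for females alone, were at most 0.30 FPKM; both are named for embryonic or fetal chains. Cygb, the cytoglobin of fibroblast-like and some neural cells, was at 9.68, 10.2, 7.11 and 7.30 FPKM. Ngb, the neuroglobin of neurons, was at 3.04, 4.10, 3.03 and 4.87 FPKM. Both BPA libraries were above both controls, as in 13.8% of 13542 rows. Its log2 change was 0.34 in males and 0.54 in females, and no counting interval was taken for it.

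The red cell programme was low beside hemoglobin. Of 18 genes of this list, which holds the regulators, membrane proteins and hemoglobin chaperone of developing red cells, 14 were listed, and 12 of them were under 1 FPKM in every library. Alas2, the red cell enzyme that opens heme synthesis, was at 2.42, 2.11, 2.84 and 2.32 FPKM in control males, BPA males, control females and BPA females. Ahsp, the chaperone of free alpha chains, was at 1.16, 1.64, 0.46 and 0.93 FPKM. The 14 genes summed to 5.78, 5.87, 5.46 and 4.83 FPKM, so the pool of BPA females, which had the most hemoglobin, had the lowest sum. With BPA Alas2 was lower and Ahsp higher in both sexes. The part of blood content in the hemoglobin levels was not tested.

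Markers of other blood cells were also low. The 4 platelet markers listed summed to 1.06, 1.88, 2.71 and 2.51 FPKM in control males, BPA males, control females and BPA females, with Pf4, a platelet chemokine, at 0.45, 1.40, 2.23 and 1.82 FPKM. The 6 neutrophil markers summed to 1.86, 2.72, 2.71 and 2.64 FPKM, and the 1 lymphocyte marker listed, Cd79b, was at most 0.29 FPKM. The 6 endothelial markers, from the vessel wall, summed to 100.3, 96.5, 113 and 94.1 FPKM, highest in control females, where hemoglobin was lowest. None of these lists had the order of the libraries that summed hemoglobin had.

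Heme synthesis was measured in full, and 0 of its 10 genes were past the fold in either sex. Their sum was 109, 106, 97.6 and 101 FPKM in control males, BPA males, control females and BPA females. Alad, the enzyme that joins the precursors into porphobilinogen, was the highest, at 23.0, 25.3, 18.8 and 23.8 FPKM, and Slc25a38, the mitochondrial glycine carrier of heme synthesis, was at 15.5, 11.9, 11.6 and 14.5 FPKM. In both sexes 5 of the 10 genes were higher and 5 lower with BPA, and the median log2 change was -0.05 in males and -0.02 in females, against -0.0017 and -0.04 over all rows.

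Iron handling held 14 genes, of which 12 passed the filter on low values. Past the fold in males, and higher with BPA, were 2 of them, Tf and Ftl1, and in females 0 were past it. Tf, which encodes the iron carrier transferrin, was at 2.74 and 6.80 FPKM in control males and BPA males and at 2.91 and 2.02 FPKM in control females and BPA females. Ftl1, the ferritin light chain, was at 8.50 and 66.7 FPKM in males (log2 change 2.83) and at 30.8 and 42.7 FPKM in females (0.46). Fth1, the ferritin heavy chain, was at 723, 650, 676 and 673 FPKM and had no such order. Tfrc, the transferrin receptor, was at 18.5, 17.2, 25.6 and 23.0 FPKM.

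Hemoglobin and heme clearance was represented by 9 listed genes, of which 7 passed the filter and 0 were past the fold in either sex. Hmox1, the inducible heme oxygenase, was at 5.73, 4.57, 3.97 and 4.75 FPKM in control males, BPA males, control females and BPA females. Hp, the haptoglobin that binds free hemoglobin, was at 1.64, 1.26, 1.66 and 1.46 FPKM. Blvrb, a biliverdin reductase, was at 15.6, 12.7, 11.9 and 9.47 FPKM, lower with BPA in both sexes. In each sex 2 of the 7 genes were higher and 5 lower with BPA, with median log2 changes of -0.22 in males and -0.11 in females, against -0.0017 and -0.04 over all rows.

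Among 11 listed regulators of globin genes, 6 passed the filter and 0 were past the fold in either sex. The 6 were genes that neurons or other cells of the brain also express. Bcl11a, a repressor of fetal-type globin genes in red cells, was at 69.4, 66.6, 63.9 and 71.0 FPKM in control males, BPA males, control females and BPA females. Ldb1, a protein that joins the globin enhancer with the promoter, was at 55.1, 62.7, 49.0 and 57.3 FPKM. Klf1, the activator of adult beta-type genes, was under 1 FPKM in every library. Of the 6 regulators 2 were higher and 4 lower with BPA in each sex. Among 7 listed membrane and glycolytic genes that red cells share with other cells, 6 passed the filter and 0 were past the fold, with Slc2a1, a glucose transporter, at 18.7, 19.7, 17.1 and 19.9 FPKM.

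**Figure D4:**
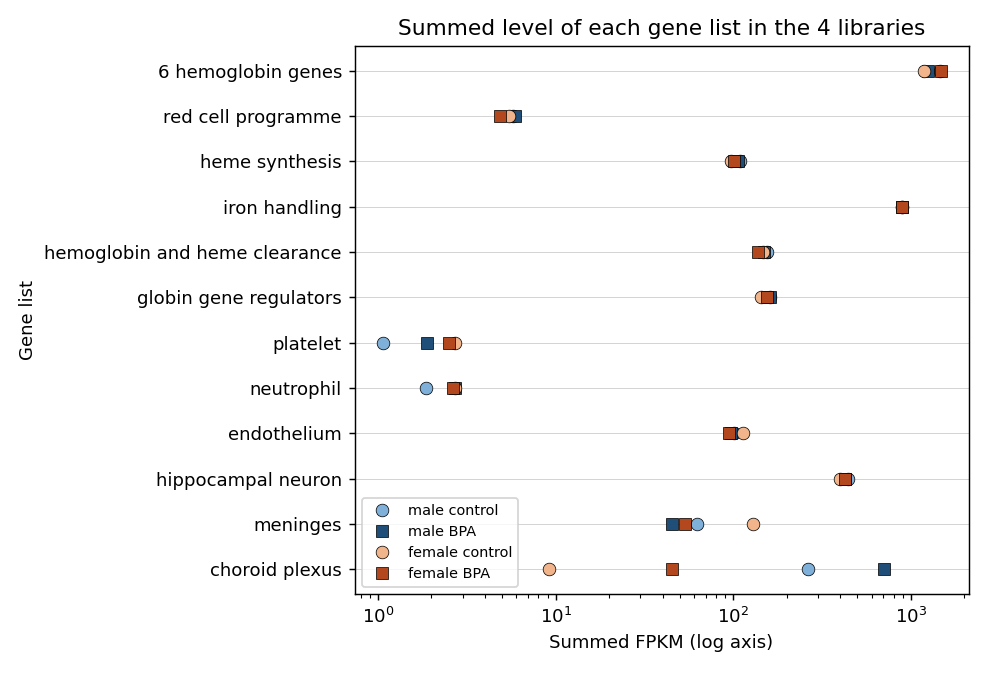
Summed FPKM (log axis) of the 6 hemoglobin genes and of each gene list (rows) in the 4 libraries. Points are single libraries. Hemoglobin sums to 1184 to 1469 FPKM and the red cell programme to 4.83 to 5.87 FPKM, while choroid plexus markers range from 9.23 to 704 FPKM.

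In the test over both sexes, limma on log2(FPKM + 1) with 2 BPA against 2 control libraries, 0 of 13542 rows had a Benjamini-Hochberg adjusted p under 0.05, and 637 rows (4.7%) had an unadjusted p under 0.05. The lists held 0 genes past the adjusted threshold. At the unadjusted threshold Ngb among the other globins and Ftl1 in iron handling were higher, with log2 changes of 0.44 ± 0.18 (standard error) and 1.65 ± 0.52 and an adjusted p of 0.973 for each in limma. The red cell programme, heme synthesis, clearance, globin regulator and shared membrane lists held 0 genes past it. Lower past it were Prox1 among the neuronal markers, Cdh5 among the endothelial ones, and Col1a1 and Col3a1 among the meningeal ones. With sex as a covariate, 2 rows had an adjusted p under 0.05 and 1216 rows an unadjusted p under 0.05. The 6 hemoglobin genes were part of these fits, but no p is given for them, since this contrast chose them. With 1 pool in each group, its p-values measure the spread between pools of both sexes.

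The rows most like the summed hemoglobin level over the 4 libraries were sought among 10851 other rows with a gene ID and a mean of at least 1 FPKM. Likeness was the root mean square difference of log2(FPKM + 1) after each row was centred over the 4 libraries. A flat row would be at 0.136 on this measure. The closest were Nlrx1 at 0.0194, Oscp1 at 0.0211, Tspy26 at 0.0234, MGC94335 at 0.0235 and Tmem203 at 0.0235. Nlrx1 was at 3.16, 2.61, 2.51 and 3.23 FPKM in control males, BPA males, control females and BPA females. With 4 libraries, many rows share a pattern of this kind, and the likeness is a description.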

How the data were processed

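Pooled hippocampi (3 per library) of 4 groups were sequenced as RNA. The authors deposited 1 FPKM value per gene model and library, with 0.01 as the lowest value; FPKM times length in kb summed to 1023371 to 1035551 per library. The submitters' processing notes name HISAT 0.1.6, Bowtie2 2.2.5, RSEM and the genome build rn6, without roles; how fragments matching several copies were shared is not given in the sources used here.

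Tables were joined by gene ID. Rows with a mean of 1 FPKM or more were kept, and changes were taken as differences of log2(FPKM + 1), without a test for 1 library against 1. With R 4.3.3, limma 3.58.1 (trended eBayes) compared 2 BPA with 2 control libraries; it was tested on simulated data. Depth was the number of fragments at which low FPKM became whole; 95.3 to 98.8% of low values lay within 0.15 of a whole number, where 30.0% would if they were spread evenly. Exact Poisson and binomial intervals at 95% cover counting error only. Promoters and gene names came from RefSeq GRCr8 (13901 of 13984 gene IDs matched); no protein or transcript sequence was used. The rule for named genes was all 6 hemoglobin genes and, from the lists, genes with a mean of at least 1 FPKM or past the fold; other genes named were chosen after their values were seen. The genes and lists were chosen with earlier results of these data known. Alternatives were quantile normalization, other filters and pseudocounts, sex as a covariate, other sums and leaving out each library. Python 3.11.15, numpy 2.4.6, pandas 2.3.3, scipy 1.17.1, Biopython 1.88 and matplotlib 3.10.9 were used.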

Additional observations from a re-analysis of the deposited data

Results flagged for a closer look

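Several changes between BPA and control went opposite ways in the sexes, with 1 library in each group; these differences between the sexes were not tested. Over all rows, 43.2% had opposite signs. The log2 change of summed hemoglobin was -0.22 in males and 0.31 in females. It was -0.24 in males and 0.33 in females for the alpha-type sum, and -0.18 in males and 0.29 in females for the beta-type sum. Of the single genes, Hba1 was at -0.33 in males and 0.28 in females, Hba2 at -0.12 and 0.39, and Hbb at -0.16 and 0.37.

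The new gene model BGI_novel_G003511, matched to the beta-2 chain, had a log2 change of -0.34 in males and 2.95 in females. Tf, the iron carrier, was at 1.06 in males and -0.37 in females. Slc6a13, a transporter of meningeal cells, was at 0.081 in males and -1.07 in females.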

How the results depend on the processing

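Of 24 alternative values of the changes of the 6 genes within the sexes, by another pseudocount or quantile normalization, 0 changed direction and 3 moved beyond counting error: quantile normalization lowered the log2 changes in females to 0.11 for Hba1, 0.26 for Hba2 and 0.25 for Hbb. It also lowered the change of summed hemoglobin in females to 0.18; the cause was not tested. The counts over all rows depended on the settings more. Rows past the fold in males, in females, between controls and between BPA libraries numbered 26, 62, 90 and 54 with a mean of at least 5 FPKM, and 483, 590, 607 and 519 with a pseudocount of 0.1; the cause was not tested. With quantile normalization the rows past the fold in females were 165 higher and 138 lower, against 139 and 175. Between the BPA libraries they were 133 higher and 124 lower, against 118 and 140. The larger direction stayed the same in males and between the controls.

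In limma, 637 rows passed an unadjusted p under 0.05, and 2 passed the adjusted threshold with sex as a covariate. At an unadjusted p under 0.05, the fit with this covariate called 1216 rows, a count added after seeing the data. These counts take in the 6 hemoglobin genes, for which this contrast gives no test, so the rows called are not named. When a library was left out, the lone library of a treatment was assumed to vary like the others, so no count is given for those fits. The labels give no replicate numbers; the fit with sex as a covariate pairs the control and BPA pools of a sex. With 1 pool per group, no change within a sex could be set against the spread between animals, and the level of LOC100134871 in male control rests on 9 fragments.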
